A study of Homo sapiens with 8 samples.

Results

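Genes activated by the tumour suppressor p53 were followed across 8 Affymetrix arrays of the human melanoma line SK-MEL-5. The set was drawn up by name as 9 genes: CDKN1A, MDM2, SESN1, BTG2, GDF15, XPC, TP53I3, PPM1D and RRM2B. Its members were all probe sets that the platform annotation assigned to 1 of these symbols and to no other gene. This gave 36 probe sets for 8 of the 9 genes, among 45284 probe sets with 1 symbol for 18244 genes, and BTG2 was not analysed here. The arrays fell into 4 groups of 2. Cells of the THZ1 group received 250 nM of THZ1, a covalent inhibitor of the transcription kinase CDK7, in 25 µM DMSO for 6 h, and cells of the DMSO group received 25 µM DMSO alone, for a duration that the labels do not give. Cells of the siMITF group were transfected with siRNA against MITF, the master transcription factor of the melanocyte lineage, and cells of the siCtrl group with a control siRNA that has no target. The time of harvest after transfection is not given either. All 4 groups are the same line, so the results describe 1 tumour's cells. Nothing states that paired arrays had separate cultures behind them, and the spread that p-values rest on may therefore be technical.

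p53 is a transcription factor that accumulates after DNA damage and other stress and switches on genes that halt the cell cycle, repair DNA or kill the cell. MDM2 is the ubiquitin ligase that marks p53 for destruction and is itself a p53 target, so the pair forms a negative feedback loop, and the phosphatase PPM1D (Wip1) closes a further loop by removing activating phosphates from p53 and its kinases. CDKN1A encodes p21, the inhibitor of cyclin-dependent kinases through which p53 stops cell division. In melanoma cells MITF has itself been described as an activator of CDKN1A.

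The sequences just upstream of the transcription start of 4 members are shown. CDKN1A and XPC were picked after their values were seen. GDF15 and SESN1 were picked because their windows also hold a TATA box or the p53 decamer. All 4 windows hold GGGCGG, and a link between motifs and changes was not tested. The sequences are from RefSeq on GRCh38.p14, given 5′ to 3′ on the strand of the gene and ending at the base before the start site. Capitals mark GGGCGG, the GC box bound by SP1, the TATA box TATAAA, and, in SESN1 only, the decamer of the p53 consensus.
CDKN1A, chr6:36678464-36678713, plus strand: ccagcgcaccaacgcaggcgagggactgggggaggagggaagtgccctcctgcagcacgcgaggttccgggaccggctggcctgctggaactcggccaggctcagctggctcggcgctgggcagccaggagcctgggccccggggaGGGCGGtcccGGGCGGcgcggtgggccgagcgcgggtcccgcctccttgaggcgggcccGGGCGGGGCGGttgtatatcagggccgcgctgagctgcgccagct
XPC, chr3:14178602-14178851, minus strand: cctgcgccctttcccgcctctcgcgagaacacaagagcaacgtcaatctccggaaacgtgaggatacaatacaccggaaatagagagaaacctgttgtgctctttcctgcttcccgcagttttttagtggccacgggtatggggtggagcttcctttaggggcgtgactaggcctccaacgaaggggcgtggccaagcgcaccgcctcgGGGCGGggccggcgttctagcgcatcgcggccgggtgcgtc
GDF15, chr19:18385908-18386157, plus strand: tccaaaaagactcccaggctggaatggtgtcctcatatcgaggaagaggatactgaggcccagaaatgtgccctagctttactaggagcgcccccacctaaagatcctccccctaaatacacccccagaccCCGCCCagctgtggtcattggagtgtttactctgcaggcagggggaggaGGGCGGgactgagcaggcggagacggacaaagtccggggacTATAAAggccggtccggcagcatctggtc
SESN1, chr6:109008989-109009238, minus strand, 1 of its 3 listed starts: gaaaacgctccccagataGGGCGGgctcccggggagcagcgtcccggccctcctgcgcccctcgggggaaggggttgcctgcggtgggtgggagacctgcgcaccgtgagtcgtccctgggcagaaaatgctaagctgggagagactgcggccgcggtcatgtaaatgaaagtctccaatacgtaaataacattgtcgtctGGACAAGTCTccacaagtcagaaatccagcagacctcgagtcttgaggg

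The CDKN1A window holds 4 matches to GGGCGG, 2 of which overlap, and the XPC window holds 1. The GDF15 window holds 2 and also a TATAAA match that begins 29 bases before the start. Both strands were searched in windows of 250 bases. GGGCGG occurs in 42.6% of 35116 such windows of all genes and in 11 of 13 windows of the 8 members that have one, BTG2 included. The 13 windows are not independent, because some of those of MDM2 overlap almost fully. Their GC share ran from 51.2% to 76.4%, beside a median of 58% over all windows. An excess of GGGCGG in the members was not tested. TATAAA occurs in 10.7% of all windows and, among the members, in that of GDF15 alone. An exact match to the decamer of the p53 consensus occurs in 5.57% of all windows and in 1 of the members' 13, that of SESN1. The E-box letters CACGTG and CATGTG, which MITF can bind, occur in 6.34% and 9.42% of all windows and in 0 of 13 here. A match is only a match of letters, and the known p53 sites of several members lie outside these windows. Sites that differ from the exact letters were not counted, so a window without a match, such as those of MDM2, can still hold a p53 site.

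Values are linear array signals that the authors scaled to cell number, according to the series' design text. The median signal over 49495 probe sets ranged from 32.5 to 76.1 per array, and the 2 arrays within each group had r = 0.9955 to 0.9961 across the 11946 genes tested, which are not independent replicates. The median gene of an array lay -0.71 to 0.52 (log2) from its mean over all arrays. Changes are therefore given on the deposited scale, called per cell, and on a centred scale, from which this offset of each array was subtracted, so that a centred change is a change relative to the median gene. With siMITF the median gene changed by -0.63 per cell, so a gene that held its per-cell level there stood above the median gene. With THZ1 the median gene changed by -0.16. In such bulk samples, fewer cells that express a gene and less of its RNA per cell cannot be told apart. MITF, the target of the siRNA, had signals of 1747 and 1168 with siMITF against 3436 and 3936 with siCtrl. It fell 2.56-fold per cell (limma, adjusted p = 1.62e-06) and 1.65-fold on the centred scale (limma, adjusted p = 3.25e-04). With THZ1 the MITF signals were 3311 and 4178, against 4670 and 5669 with DMSO. That change was -0.47 per cell (limma, adjusted p = 0.28) and -0.27 on the centred scale (limma, adjusted p = 0.0498). All 7 melanocyte markers with a probe set passed the filter on low signals. PMEL, MLANA, TYR and TYRP1 had signals of 3090 to 12590, S100B of 1383 to 4106, and SOX10 of 151 to 566, with a mean of 183 with THZ1 against 492 with DMSO. Among genes that mark cells other than melanocytes, 0 of 4 leukocyte genes, 1 of 5 keratinocyte genes (KRT10) and 3 of 6 fibroblast genes passed this filter. The summed signal of the fibroblast markers, mostly that of LUM, was 2370 to 2843 with DMSO, 2658 to 3449 with THZ1, 1539 to 1873 with siCtrl and 746 to 979 with siMITF. The part of these markers in the results was not tested.

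**Figure D1:**
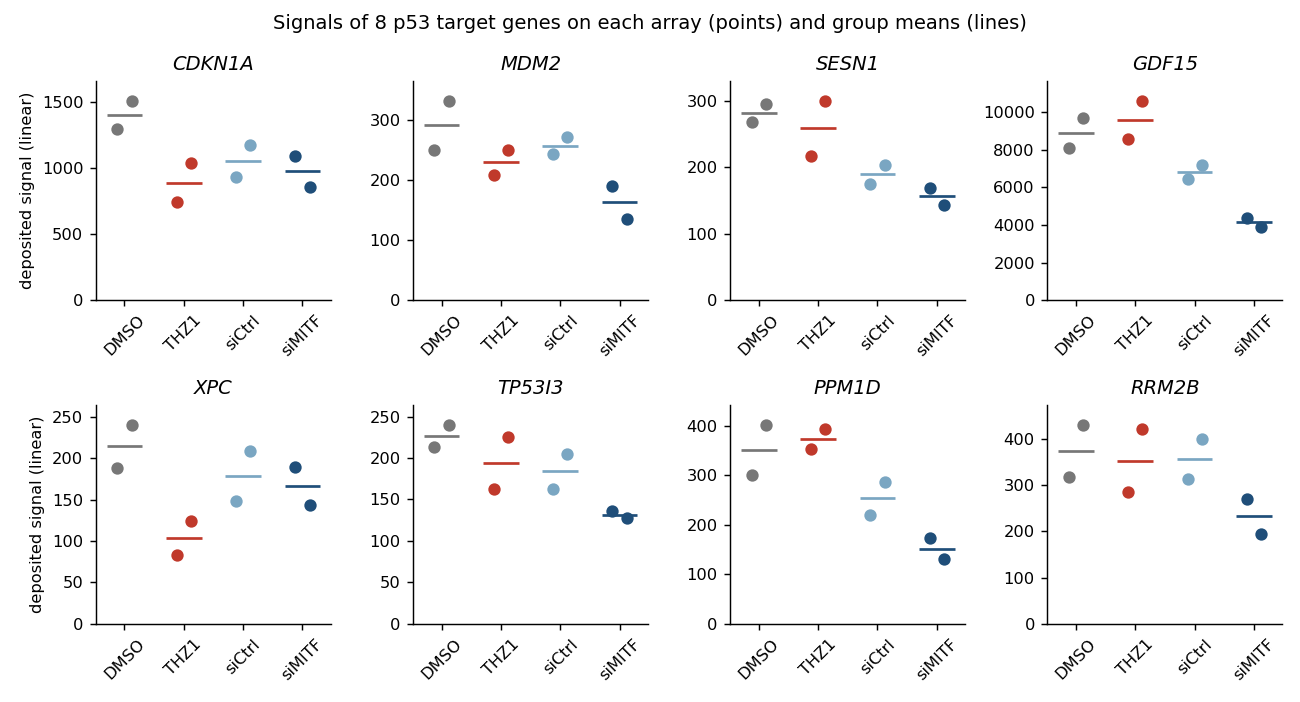
Deposited signal (linear axis from 0) of the brightest probe set of each of 8 p53 target genes. Each point is 1 array and each line the mean of a group of 2. CDKN1A, MDM2 and XPC have both THZ1 arrays below both DMSO arrays, and every gene except CDKN1A and XPC has both siMITF arrays below both siCtrl arrays.

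The comparison of THZ1 with DMSO asks how these mRNAs differ after 6 h of exposure to THZ1. XPC fell per cell, CDKN1A and XPC fell on the centred scale, and GDF15 and PPM1D rose on it. The other 4 measured genes did not pass the test on either scale. Per cell, 1 of 8 genes was called, where 10.1% of the 11946 tested genes were called, and both THZ1 arrays lay below both DMSO arrays for 3 of 8 members and for 30.0% of tested genes. On the centred scale 4 of 8 were called, 2 lower and 2 higher, against 38.8% of all genes (21.1% lower and 17.7% higher). The members' median change was -0.18 per cell and 0.02 after centring, beside -0.16 and 0.04 over all tested genes.

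CDKN1A had signals of 1296 and 1508 with DMSO and 743 and 1038 with THZ1. Both THZ1 arrays lay below both DMSO arrays. Its log2 change was -0.66 per cell (SE 0.25, n = 2 per group), 1.58-fold lower, which did not pass the test (limma, adjusted p = 0.0635). The per-cell SE was the same for every gene and was taken as exactly known, which makes per-cell p-values too small. On the centred scale CDKN1A fell 1.38-fold (log2 change -0.46, SE 0.074, limma adjusted p = 0.00109), and 10.9% of tested genes lay as low or lower. This centred call held in all 17 alternative analyses. The per-cell change was not called in 14 of 17 alternatives. It was -0.425 without THZ1 replicate 1 (adjusted p = 0.708), -0.554 without DMSO replicate 2 (adjusted p = 0.654) and -0.899 without THZ1 replicate 2, where it passed (adjusted p = 0.00981).

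XPC encodes the protein that recognises bulky lesions at the start of global genome nucleotide excision repair. Its signals were 188 and 241 with DMSO and 82.7 and 124 with THZ1, so the groups did not overlap and the higher THZ1 value was still well under the lower DMSO value. XPC fell 1.95-fold per cell (log2 change -0.96, SE 0.25, limma adjusted p = 0.00227) and 1.70-fold on the centred scale (-0.76, SE 0.086, limma adjusted p = 1.26e-04). Of all tested genes 3.85% had as low a change or a lower one. The second XPC probe set had -0.53 per cell, which did not pass (adjusted p = 0.196). The per-cell call rested on single arrays: the log2 change was -0.71 without THZ1 replicate 1 and -0.80 without DMSO replicate 2, and neither passed (adjusted p = 0.165 and 0.201). Without those arrays 373 and 244 of all tested genes were called.

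RRM2B, a small subunit of ribonucleotide reductase that supplies deoxynucleotides for repair, did not pass on its brightest probe set. Its signals were 318 and 431 with DMSO and 285 and 421 with THZ1, which overlap. The log2 change was -0.091 per cell (adjusted p = 0.969) and 0.11 on the centred scale (95% interval -0.088 to 0.305, limma adjusted p = 0.353).

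The feedback genes MDM2 and PPM1D did not pass per cell. MDM2 had signals of 250.5 and 332 with DMSO and 209 and 250.2 with THZ1 on its brightest probe set. Both THZ1 values lay below the lower DMSO value, one of them by a narrow margin. The change was -0.32 per cell (adjusted p = 0.614) and -0.12 on the centred scale (95% interval -0.317 to 0.0838, limma adjusted p = 0.329). PPM1D had 300 and 403 with DMSO and 354 and 393 with THZ1, with the THZ1 values inside the DMSO range. Per cell its change was 0.097 (adjusted p = 0.967), and on the centred scale PPM1D rose 1.23-fold (0.30, SE 0.096, limma adjusted p = 0.0336). That call was lost in 9 of 17 alternative analyses, including those without THZ1 replicate 1 and without either DMSO array.

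GDF15, a secreted stress cytokine of the TGF-beta family, had signals of 8084 and 9679 with DMSO and 8607 and 10610 with THZ1. The groups overlapped on the deposited scale. Its change was 0.11 per cell (adjusted p = 0.963), and it rose 1.24-fold on the centred scale (0.31, SE 0.077, limma adjusted p = 0.0103), where 90.6% of tested genes lay at or below it. With quantile normalization GDF15 had 0.054 (adjusted p = 0.479), and the call was also lost without THZ1 replicate 1, without DMSO replicate 2 and without the filter.

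SESN1, a sestrin that restrains mTORC1 signalling, had signals of 269 and 295 with DMSO and 217 and 300 with THZ1. TP53I3 (PIG3), a quinone oxidoreductase linked to reactive oxygen, had 214 and 240 with DMSO and 162 and 225 with THZ1. The groups overlapped for both genes. Their changes were -0.13 and -0.23 per cell, and 0.067 and -0.026 on the centred scale, none of which passed the limma test (adjusted p = 0.947, 0.825, 0.532 and 0.834).

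**Figure D2:**
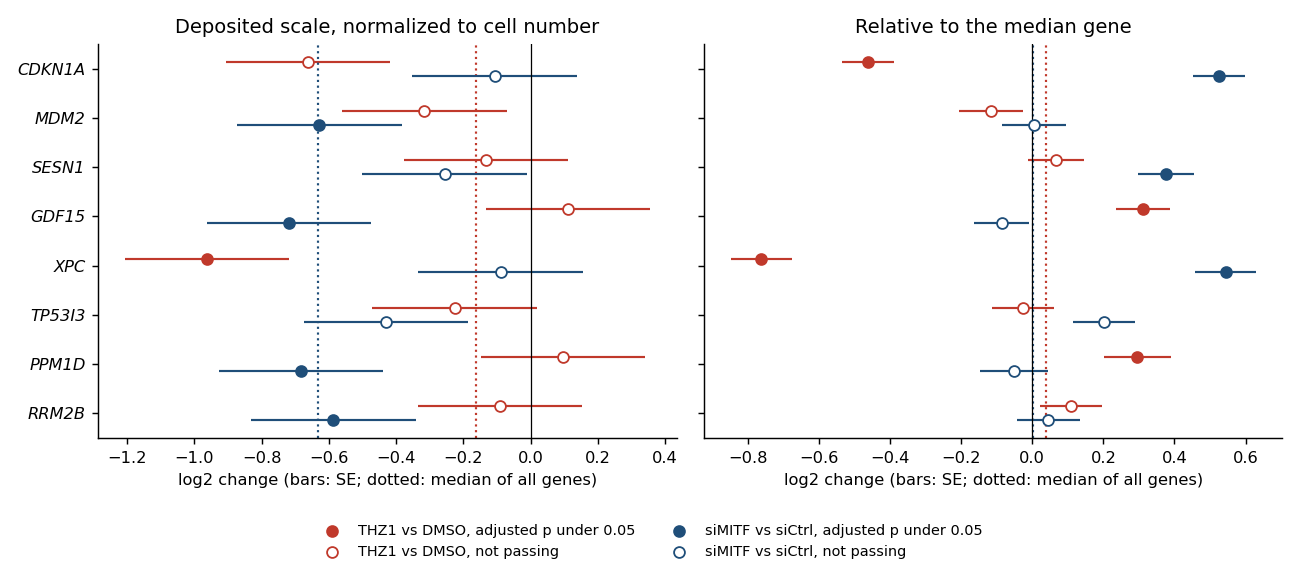
Log2 change of each gene on the deposited scale (left) and relative to the median gene (right), for THZ1 against DMSO in red and siMITF against siCtrl in blue, with 2 arrays per group. Bars are SE, filled points passed the test, and dotted lines are the median of all tested genes. CDKN1A and XPC lie at -0.46 and -0.76 with THZ1 and at 0.53 and 0.54 with siMITF on the right.

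The comparison of siMITF with siCtrl asks how lowering the lineage factor alters these mRNAs. MDM2, GDF15, PPM1D and RRM2B fell per cell, by amounts close to the fall of the median gene. CDKN1A, XPC and SESN1 did not pass per cell, and rose on the centred scale. Per cell, 4 of 8 genes were called, all lower, against 63.7% of all tested genes and 63.4% in that direction. On the centred scale 3 of 8 were called, all higher, against 44.2% of all genes, and 19.5% in that direction. The members' median change was -0.51 per cell and 0.12 after centring, beside -0.63 and 0.001 over all tested genes. Both siMITF arrays lay below both siCtrl arrays for 6 of 8 members, against 89.0% of tested genes.

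CDKN1A had signals of 929 and 1176 with siCtrl and 1092 and 860 with siMITF, and the groups overlapped. Its per-cell change of -0.11 did not pass (95% interval -0.588 to 0.374, limma adjusted p = 0.682). On the centred scale CDKN1A rose 1.44-fold (log2 change 0.53, SE 0.074, limma adjusted p = 4.61e-04), and 95.5% of tested genes lay at or below it. XPC followed the same course, with 148 and 210 with siCtrl and 190 and 143 with siMITF, again overlapping. Its change was -0.089 per cell (adjusted p = 0.735), and it rose 1.46-fold on the centred scale (0.54, SE 0.086, limma adjusted p = 8.93e-04). Both centred rises passed in all 17 alternative analyses, with values from 0.343 to 0.755 for CDKN1A and 0.362 to 0.663 for XPC.

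SESN1 had signals of 175 and 204 with siCtrl and 169 and 144 with siMITF. Both siMITF arrays were lower, by a small margin. Its change was -0.26 per cell (adjusted p = 0.327), and it rose 1.30-fold on the centred scale (0.38, SE 0.079, limma adjusted p = 0.00402), a call lost only without the filter on low signals (0.195, adjusted p = 0.189). TP53I3 had 163 and 205 with siCtrl and 136 and 128 with siMITF, which did not overlap. Its changes of -0.43 per cell (adjusted p = 0.105) and 0.20 on the centred scale (limma adjusted p = 0.0844) did not pass.

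MDM2 had signals of 243 and 272 with siCtrl and 191 and 135 with siMITF, and fell 1.55-fold per cell (log2 change -0.63, SE 0.25, limma adjusted p = 0.0206). Its change on the centred scale was 0.0040 (95% interval -0.196 to 0.204). PPM1D had 220 and 287 with siCtrl and 173 and 131 with siMITF, and fell 1.61-fold per cell (limma adjusted p = 0.0123), with -0.050 on the centred scale. GDF15 had 6440 and 7180 with siCtrl and 4397 and 3871 with siMITF, and fell 1.65-fold per cell (limma adjusted p = 0.00862), with -0.086 on the centred scale. RRM2B had 313 and 400 with siCtrl and 271 and 195 with siMITF, and fell 1.5-fold per cell (limma adjusted p = 0.0299), with 0.045 on the centred scale. In all 4 genes the siMITF arrays lay below the siCtrl arrays, and none of the centred changes passed (adjusted p from 0.384 to 0.975). In alternatives, the centred change of GDF15 passed as lower with pseudocount 64 (-0.25), the mean of probe sets (-0.17) and quantile normalization (-0.217), and that of RRM2B passed as higher with quantile normalization (0.246). Without siCtrl replicate 2, or without siMITF replicate 2, 0 of 8 members passed per cell, and the calls over all genes fell to 1769 of 11947 and 1852 of 11965. Without siMITF replicate 2 the change was -0.40 for MDM2 and -0.366 for RRM2B. The calls of these 2 genes were also lost with a trend in the variance (adjusted p = 0.0566 and 0.0795) and with rescaling to ERCC (adjusted p = 0.0564 and 0.0722).

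The changes with THZ1 and with siMITF were then set against each other by a test of their difference, in which each array enters 1 of the changes, while the centring and the variance estimate are common to both. Per cell 0 of 8 genes passed, against 10.8% of all tested genes. The lowest unadjusted per-cell p of a member from limma was 0.0118, for XPC, and 3 members had an unadjusted p under 0.05. On the centred scale 4 of 8 passed, 3 lower and 1 higher, against 41.6% of all genes (20.2% lower and 21.4% higher). XPC was lower with THZ1 than with siMITF by 1.31 on the log2 scale (SE 0.12, limma adjusted p = 5.70e-05), CDKN1A by 0.99 (SE 0.11, adjusted p = 1.21e-04) and SESN1 by 0.31 (SE 0.11, adjusted p = 0.0487). The SESN1 difference was lost in 13 of 16 alternative analyses, among them those without 7 of the 8 arrays in turn (only the one without DMSO replicate 2 kept it), and the second SESN1 probe set had 0.087. GDF15 was higher with THZ1 by 0.40 (SE 0.11, adjusted p = 0.0145), a call lost without siMITF replicate 1 (adjusted p = 0.0579) and with pseudocount 1 (adjusted p = 0.0789). The differences of MDM2, TP53I3, PPM1D and RRM2B did not pass on their brightest probe sets (adjusted p = 0.484, 0.167, 0.0637 and 0.719). Of the probe sets tested for this difference, 40.1% were called. Among them 4 of 7 of RRM2B were called higher, and the mean of its probe sets gave 0.37 (adjusted p = 0.00554). Of the 9 of MDM2, 5 were called higher and 1 lower.

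The other probe sets of a gene showed how far these values depend on the probe set. The cause of differences between probe sets was not tested. Of the 36 probe sets 32 passed the filter on low signals, and these were tested among 27170 probe sets, of which 35.3% were called with THZ1 and 43.6% with siMITF on the centred scale. Both CDKN1A probe sets were lower with THZ1 (-0.46 and -0.36) and higher with siMITF (0.53 and 0.44) on that scale, and all 4 calls passed. Both XPC probe sets did the same, with -0.76 and -0.33 with THZ1 and 0.54 and 0.61 with siMITF. Within each comparison the probe sets of these 2 genes thus shared 1 direction on that scale. Per cell, both probe sets of each gene lay below 0 in both comparisons. GDF15 was likewise uniform on the centred scale. There all 5 of its probe sets lay above 0 with THZ1 (0.083 to 0.31, 3 called higher), and all 5 lay below 0 with siMITF (-0.24 to -0.037, 1 called lower).

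MDM2 gave mixed values. Its brightest probe set had -0.12 on the centred scale with THZ1, and the next brightest fell by 0.59 (adjusted p = 0.00275). The latter had signals of 308 and 304 with DMSO against 139 and 209 with THZ1. The other 7 tested MDM2 probe sets lay between 0.028 and 0.35, and 2 of them were called higher (0.35 and 0.23, adjusted p = 0.0126 and 0.032). With siMITF all 9 fell per cell, where 65.4% of all probe sets were called, and their centred changes ran from -0.29 to 0.0057, with 1 called lower. The MDM2 probe sets thus disagreed in direction with THZ1. Most of these probe sets are of the design ending in _x_at, which can also detect related sequences.

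RRM2B also depended on the probe set. The brightest had 0.11 on the centred scale with THZ1, while all 7 tested lay above 0, up to 0.49, with a median of 0.31, and 5 were called higher. The mean over its probe sets gave 0.301, which passed (adjusted p = 0.00318). Of the 4 PPM1D probe sets 1 was called higher with THZ1, the brightest, and the others ran from -0.076 to 0.19. The SESN1 probe sets had 0.067 and 0.30 with THZ1, of which the latter was called, and 0.38 and 0.22 with siMITF, both called higher. TP53I3 had 1 probe set. Of the 4 probe sets under the filter, 2 of MDM2 and 2 of RRM2B, no test was made, and their signals were 18.1 to 59.8.

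**Figure D3:**
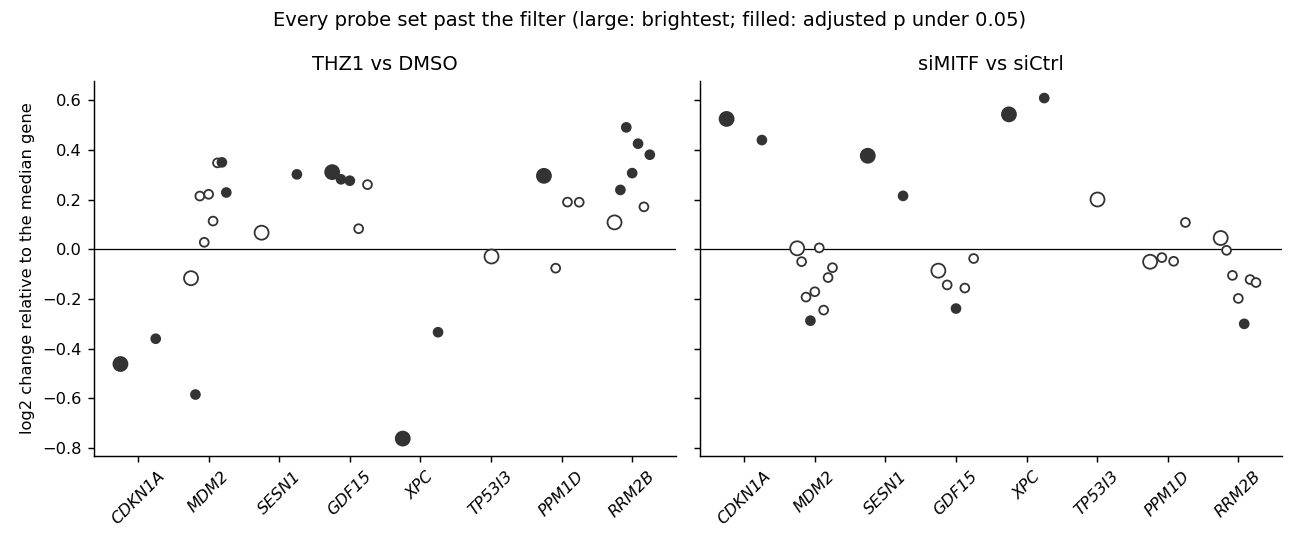
Log2 change relative to the median gene for each of 32 probe sets past the filter, by gene, for THZ1 against DMSO (left) and siMITF against siCtrl (right). Large points are the brightest probe set of a gene and filled points passed the test. CDKN1A and XPC points all lie below 0 on the left and above 0 on the right, while MDM2 points span -0.59 to 0.35 on the left.

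Other reported p53 targets, written as 4 lists from general knowledge, were compared with these genes. Of 71 listed genes 60 were tested. With THZ1, 4 were lower and 0 higher per cell (10.0% and 0.0753% of all tested genes). After centring 15 were lower and 16 higher with THZ1 (21.1% and 17.7% of all tested genes). With siMITF, 27 were lower and 1 higher per cell (63.4% and 0.326% of all tested genes). After centring 14 were lower and 28 higher with siMITF (24.7% and 19.5% of all tested genes). The median centred change of the 60 genes was 0.03 with THZ1 and 0.15 with siMITF, beside 0.04 and 0.001 over all genes. The pattern of CDKN1A and XPC, called lower with THZ1 and higher with siMITF on the centred scale, was met by 8 of the 60 (13.3%) and by 4.39% of all tested genes. The 8 were BBC3, TNFRSF10B, PHLDA3, POLH, TRIAP1, DRAM1, SUSD6 and ANKRA2, named after their values were seen. The pattern itself was also chosen from these arrays, so its count only describes them. In either direction 51.7% of the 60 were called with THZ1 and 70% with siMITF, against 38.8% and 44.2% of all genes. The converse pattern was met by 4 of the 60 (6.67%) and by 5.06% of all genes.

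Among 14 tested targets of growth arrest, 3 were lower and 2 higher with THZ1 on the centred scale (21.1% and 17.7% of all tested genes). With siMITF 2 were lower and 6 higher on that scale (24.7% and 19.5% of all tested genes). E2F7, a repressor of cell cycle genes, fell by 1.33 per cell with THZ1 (limma adjusted p = 6.80e-06) and by 1.21 with siMITF. PLK2, a polo-like kinase, rose 1.52-fold per cell with siMITF (log2 change 0.60, adjusted p = 0.0267) and 2.35-fold on the centred scale, and had 0.042 on the centred scale with THZ1. CDKN1C, which encodes the p21 relative p57, rose 2.18-fold on the centred scale with siMITF (adjusted p = 9.53e-06), and its per-cell change of 0.49 did not pass (adjusted p = 0.0649). ZMAT3, an RNA-binding regulator of splicing, rose by 0.68 on the centred scale with THZ1 (adjusted p = 1.23e-04). Its per-cell change of 0.48 with THZ1 did not pass (adjusted p = 0.264).

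Among 13 tested targets of apoptosis, 4 were lower and 4 higher with THZ1 on the centred scale (21.1% and 17.7% of all tested genes). With siMITF 4 were lower and 8 higher on that scale (24.7% and 19.5% of all tested genes). PMAIP1 (NOXA), a BH3-only protein that triggers the mitochondrial pathway, rose by 0.54 with THZ1 and fell by 0.55 with siMITF on that scale. Per cell it fell 2.28-fold with siMITF, and its change of 0.34 with THZ1 did not pass (adjusted p = 0.556). BBC3 (PUMA), of the same class, went the other way, with -0.31 and 0.30 on the centred scale (adjusted p = 0.0173 and 0.0182). TNFRSF10B, a death receptor, had -0.40 and 0.23 on that scale (adjusted p = 0.00308 and 0.0367). BAX, the pore-forming effector, had -0.21 with THZ1 (adjusted p = 0.0782) and rose by 0.34 with siMITF (adjusted p = 0.0095), also on the centred scale. Per cell BBC3, TNFRSF10B and BAX had -0.51, -0.60 and -0.41 with THZ1, and none passed (adjusted p = 0.212, 0.112 and 0.401). With siMITF they had -0.33, -0.41 and -0.29 per cell, and none passed (adjusted p = 0.203, 0.124 and 0.261). AEN, an apoptosis-enhancing nuclease, fell per cell in both comparisons (-0.83 and -0.93).

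Among 14 tested targets of repair and metabolism, 3 were lower and 7 higher with THZ1 on the centred scale (21.1% and 17.7% of all tested genes). With siMITF 2 were lower and 8 higher on that scale (24.7% and 19.5% of all tested genes). SESN2, the paralog of SESN1, rose 2.0-fold on the centred scale with siMITF (log2 change 1.003, adjusted p = 2.27e-05) and had 0.37 per cell (adjusted p = 0.16). POLH, a translesion DNA polymerase, fell by 0.41 with THZ1 and rose by 0.36 with siMITF on the centred scale, as XPC did. Per cell POLH had -0.605 with THZ1 and -0.27 with siMITF, and neither passed (adjusted p = 0.105 and 0.293). Both its siMITF arrays lay below both siCtrl arrays on the deposited scale, while those of XPC overlapped. PCNA, the sliding clamp of DNA replication, fell 2.20-fold per cell with siMITF. In the list of 19 other tested targets, 5 were lower and 3 higher with THZ1 on the centred scale. With siMITF 6 were lower and 6 higher on that scale, beside the same shares of all genes. TOB1, an antiproliferative relative of BTG2, rose by 0.49 with THZ1 and fell by 0.60 with siMITF on that scale. Per cell TOB1 had 0.29 with THZ1, which did not pass (adjusted p = 0.68), and -1.23 with siMITF, which passed. DUSP14, a phosphatase, fell in both comparisons on the centred scale (-0.53 and -0.50).

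**Figure D4:**
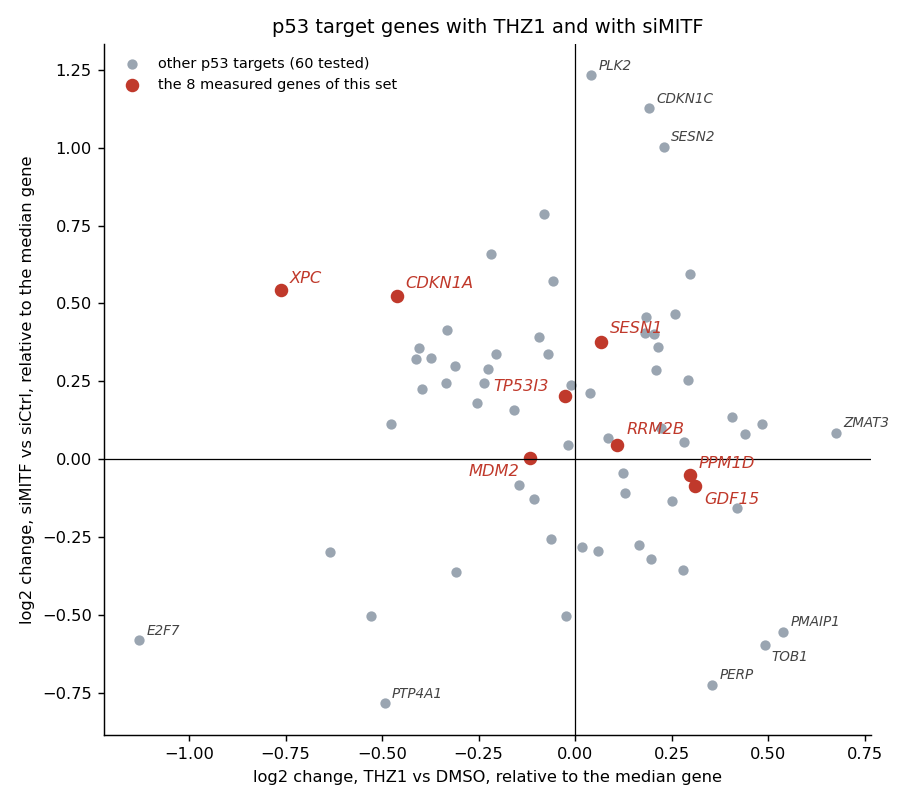
Log2 change relative to the median gene with THZ1 (horizontal axis) and with siMITF (vertical axis) for 60 other p53 targets in grey and the 8 measured genes of the set in red. XPC and CDKN1A lie to the upper left, GDF15 and PPM1D to the right close to the horizontal line, and PLK2, CDKN1C and SESN2 at the top, between 1.003 and 1.232.

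Of 21 tested regulators and cofactors of p53, 1 was lower per cell with THZ1 and 12 with siMITF, beside 10.0% and 63.4% of all tested genes. After centring 3 were lower and 2 higher with THZ1 (21.1% and 17.7% of all genes), and 3 lower and 5 higher with siMITF (24.7% and 19.5%). MDM4, the MDM2 paralog that inhibits p53, had 0.20 on the centred scale with THZ1 (adjusted p = 0.0814) and -0.081 with siMITF (adjusted p = 0.454). KAT5, an acetyltransferase of p53, fell by 0.80 per cell with THZ1 (adjusted p = 0.0156) and by 0.98 with siMITF. RCHY1 (PIRH2), a ubiquitin ligase for p53, fell 2.94-fold per cell with siMITF, and CHEK1, a checkpoint kinase that phosphorylates p53, fell 2.47-fold. RPL5 and RPL23, ribosomal proteins that can bind MDM2, had centred rises of 0.29 and 0.31 with THZ1 and 0.39 for both with siMITF. Per cell they had 0.087 and 0.109 with THZ1 and -0.24 for both with siMITF, and none of these passed.

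Partners of the members' proteins were also measured. Of 22 tested, 5 were lower per cell with THZ1 and 16 with siMITF, beside the same 10.0% and 63.4% of all genes. After centring 9 were lower and 4 higher with THZ1, and 10 lower and 2 higher with siMITF, beside the shares just given. CDKN1B, which encodes the p21 relative p27, fell 2.27-fold per cell with THZ1 (log2 change -1.18, limma adjusted p = 9.12e-05) and 1.97-fold on the centred scale. With siMITF it had -0.48 per cell (adjusted p = 0.0711) and 0.15 on the centred scale (adjusted p = 0.125), and neither passed. CCNE2, a cyclin whose kinase p21 inhibits, fell in both comparisons (-0.86 and -1.25 per cell). CDK2 and CDK4, kinases that p21 binds, fell 2.83-fold and 2.69-fold per cell with siMITF. RRM1 and RRM2, the other subunits of ribonucleotide reductase, fell 2.80-fold each per cell with siMITF. MIOS and DEPDC5, members of the complexes through which sestrins act on mTORC1, fell 2.23-fold and 2.04-fold per cell with THZ1.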

How the data were processed

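Each array's deposited file gives 1 linear signal (intensity) for every probe set. Per the submitters' processing notes they were summarised with MAS5, and per the series' design text they were normalized to cell number by the authors, with the calculation not given in the sources used here. Signals of the drug arrays and of the siRNA arrays were compared only within each set, because the signals of their ERCC spike-in probe sets differ.

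Signals were analysed as log2(value + 16), and fold changes are on that scale, which understates the change of dim genes. Probe sets were named through the platform annotation, with symbols updated to GRCh38.p14 by gene ID (45214 of 45284 matched). Each gene's brightest probe set stood for it, and it was tested if its mean log2 signal reached the 40th percentile of probe sets with 1 symbol (a signal of 39.2), which left 11946 genes. All 8 measured members passed. limma 3.58.1 in R 4.3.3 fitted 1 mean per group over 8 arrays, with empirical Bayes variances and Benjamini-Hochberg adjustment over all tested genes (threshold 0.05). The same fit was run on every probe set past the filter. For the centred scale, every tested gene's deviation from its mean over arrays was taken, and the array's median of these was subtracted. Every adjusted p is from these limma fits. Per cell the prior degrees of freedom were infinite, so each gene had the same SE, taken as exactly known, and per-cell p-values are too small. On the centred scale they were 5.97, beside 4 residual degrees of freedom. Precision is limited by the number of arrays.

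The members, lists and tests were chosen with earlier results of these data known. The genes named were all members with every probe set, MITF and MDM4, and from each list genes among the 4 with the lowest adjusted p on the centred scale in a comparison. Cell type markers, and PHLDA3 with the pattern of CDKN1A and XPC, were named outside this rule. The fits were tested on simulated data. Alternatives were other pseudocounts, no filter, the mean of probe sets, other variance estimates, fits on fewer arrays, the replicate number as a block, ERCC rescaling and quantile normalization.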

Additional observations from a re-analysis of the deposited data

How the results depend on the processing

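The count of called members kept within 1.5 times of its value in the report except as follows. With pseudocount 64, it was 2 with THZ1 per cell (from 1) and 1 in the difference per cell (from 0). With own variance of each gene, it was 0 with THZ1 per cell (from 1) and 0 with siMITF per cell (from 4). With replicate block, it was 2 with THZ1 per cell (from 1) and 2 in the difference per cell (from 0). With an empirical Bayes trend, it was 2 with siMITF per cell (from 4). With arrays rescaled to equal ERCC median, it was 2 with siMITF per cell (from 4). With no filter on low signals, it was 2 with THZ1 centred (from 4). With quantile normalization, it was 6 with siMITF centred (from 3). With 1 array left out, the count ran from 0 to 2 with THZ1 per cell, from 0 to 4 with siMITF per cell, from 0 to 2 in the difference per cell, from 2 to 4 with THZ1 centred, from 3 to 4 with siMITF centred and from 2 to 4 in the difference centred. With own variances 0 of 11946 genes were called per cell in either comparison (lowest adjusted p 0.268 with THZ1 and 0.0893 with siMITF), so those zeros say nothing about the members. Per cell with THZ1 it was 0 without DMSO replicate 2 or THZ1 replicate 1. Every value that changed sign belonged to a member whose change in the report had not passed. With mean of probe sets per gene, the log2 change was -0.05 for PPM1D with THZ1 per cell, 0.125 for RRM2B with THZ1 per cell, 0.083 for MDM2 with THZ1 centred, -0.108 for MDM2 with siMITF centred, -0.069 for RRM2B with siMITF centred and 0.191 for MDM2 in the difference centred. With quantile normalization, the log2 change was 0.016 for MDM2 with THZ1 centred, 0.1 for TP53I3 with THZ1 centred, 0.049 for PPM1D with siMITF centred and -0.04 for RRM2B in the difference centred. With pseudocount 1, the log2 change was 0.013 for GDF15 with siMITF centred. With pseudocount 64, the log2 change was -0.05 for MDM2 with siMITF centred and -0.043 for RRM2B with siMITF centred. With no filter on low signals, the log2 change was -0.178 for MDM2 with siMITF centred, -0.137 for RRM2B with siMITF centred and 0.012 for MDM2 in the difference centred. With 1 array left out, sign changes fell within these ranges. With THZ1 per cell, they were GDF15 -0.039 to 0.262, PPM1D -0.106 to 0.299, RRM2B -0.36 to 0.178 and SESN1 -0.352 to 0.087. With siMITF per cell, they were CDKN1A -0.277 to 0.063 and XPC -0.316 to 0.139. In the difference per cell, they were SESN1 -0.096 to 0.342 and TP53I3 -0.013 to 0.422. With THZ1 centred, they were TP53I3 -0.096 to 0.047 and SESN1 -0.019 to 0.157. With siMITF centred, they were RRM2B -0.039 to 0.126, MDM2 -0.088 to 0.091 and PPM1D -0.107 to 0.004. In the difference centred, they were RRM2B -0.024 to 0.142. Of 800 member values recomputed, 695 kept direction and side of the threshold, 48 lost and 20 gained a call, and 37 changed sign. With quantile normalization 6 members were called with siMITF, against 3, and the cause was not tested. Replicate numbers have no stated pairing, and same-numbered arrays' deviations correlated at 0.112 for DMSO and THZ1 and -0.184 for siCtrl and siMITF, so the replicate block is given only here. Signals near the filter limit what can be said of the 4 untested probe sets.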
